A study of Sus scrofa with 2 samples.

Results

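Barcodes with fewer than 1000 detected genes were examined in single-cell RNA sequencing libraries of pig adipose-derived stem cells (ADSCs). In this method the RNA of a droplet receives a shared barcode, and every molecule is tagged with its own random sequence, the unique molecular identifier (UMI), so that amplified copies count once. The members were chosen by the number of genes with at least 1 UMI, a readout of the same counts, so their differences from the other barcodes are described without a test. They numbered 1692 of 12251 barcodes in library 1 (13.8%) and 972 of 12956 in library 2 (7.50%), or 2664 of 25207 in all. They are called low-gene barcodes here, and the barcodes with at least 1000 genes are called the remaining barcodes.

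Both libraries belong to 1 group. The cells came from chest fat of healthy Bama miniature pigs and had been propagated in culture, and no library carried a treatment or a genetic change. Whether separate animals or cultures were used for them is not stated, so the spread between them may be technical. The number of animals is not given in the sources used here.

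A barcode with little RNA can mark a small or damaged cell, part of a cell, or a droplet that held only RNA released into the suspension. A cell with a leaky membrane loses cytoplasmic messenger RNA, while RNA inside mitochondria and the nucleus is held back longer. Nuclear RNA includes unspliced transcripts, which in long genes consist mostly of intron. These points are background, and the identity of the droplets was not measured.

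The low-gene barcodes held few molecules. They had a median of 1013.5 UMIs in library 1 and 874 in library 2, against 19845 and 19651.5 in the remaining barcodes. The smallest UMI count of any deposited barcode was 500. The median number of genes was 663 and 590, against 4454 and 4537. Together the low-gene barcodes gave 0.847% of the UMIs of library 1 (1790746) and 0.363% of those of library 2 (895078). The libraries shared 46 barcode sequences, of which 7 were low-gene barcodes in library 1, 4 in library 2 and 0 in both.

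No gap separated the members from the rest. Just inside the limit, from 950 genes up to it, library 1 had 105 barcodes with a median of 1700 UMIs, and in the next 50 genes above it there were 102 with a median of 1807. In library 2 the same windows held 23 barcodes with a median of 1606 UMIs and 24 with a median of 1727.5.

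At equal depth, most low-gene barcodes held slightly more genes than remaining ones. Remaining barcodes thinned at random to the UMI totals of the low-gene barcodes had a median of 623.5 genes in library 1 and 558 in library 2. The median difference was 36 genes in library 1 and 44 in library 2, with more genes in the low-gene barcodes. The 176 low-gene barcodes of library 2 with at least 1% mitochondrial UMIs had a median of 466.5 genes, against 474 after thinning. Of these, 45.5% held fewer genes than the thinned barcode drawn for them. After thinning, 98.8% of the remaining barcodes in library 1 and all 972 drawn in library 2 also fell under 1000 genes. With at most 2092 UMIs this outcome was largely fixed by the thinning, and it says nothing of the kind of RNA held. In library 2, 32 low-gene barcodes held under 200 genes.

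**Figure D1:**
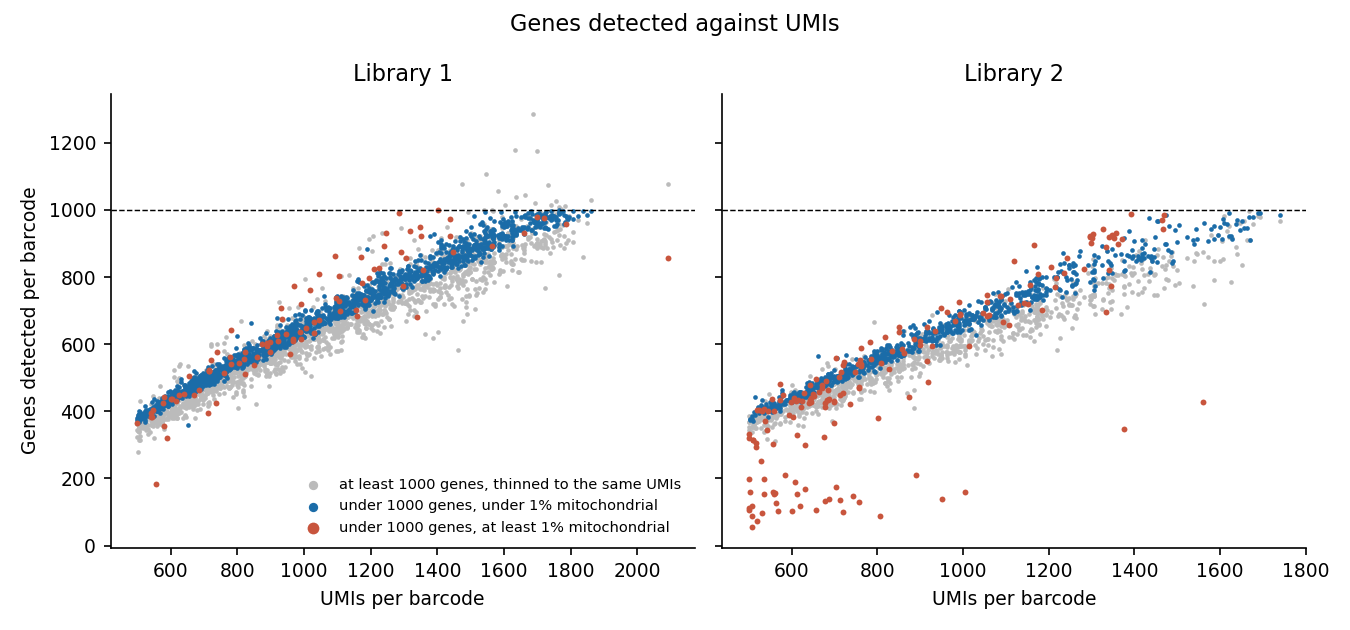
Genes detected (vertical axis) against UMIs (horizontal axis) per barcode in each library, for low-gene barcodes with under 1% (blue) and at least 1% (red) mitochondrial UMIs and for remaining barcodes thinned to the same UMI totals (grey); the dashed line is at 1000 genes. Most blue points lie in the upper part of the grey cloud, and the points far below it in library 2 are red.

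Mitochondrial ribosomal RNA was the RNA with the largest difference between the classes in library 2, and it separated a minority of the low-gene barcodes from the others. The files hold the small and large mitochondrial ribosomal RNAs, KEF22_r01 and KEF22_r02, and 21 mitochondrial transfer RNAs, and they list no mitochondrial messenger RNA. The summed share of UMIs from the 2 ribosomal RNAs was 0.719% (95% exact Poisson interval 0.707 to 0.732) in the low-gene barcodes of library 1, against 0.143% in the remaining ones. In library 2 it was 4.13% (4.08 to 4.17) against 0.112%. Intervals here and below cover counting error only.

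The medians over barcodes lay closer together. They were 0.362% against 0.137% in library 1 and 0.336% against 0.112% in library 2. At least 1% mitochondrial UMIs were found in 92 low-gene barcodes of library 1 (5.44%) and in 176 of library 2 (18.1%). Among the remaining barcodes the counts were 221 (2.09%) and 116 (0.968%). These few barcodes carried 51.4% of the mitochondrial ribosomal UMIs of the low-gene class in library 1 and 93.9% in library 2. The highest share in a single low-gene barcode was 61.4% in library 1 and 88.6% in library 2, and no remaining barcode reached 15%.

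The summed profiles of both classes were alike in most genes. Counts were summed over the barcodes of a class in each library and expressed as CPM, the UMIs of a gene per 1000000 UMIs of the profile. A gene was compared where its mean over the 4 summed profiles was at least 50 CPM, which held for 3205 genes. The 2 mitochondrial ribosomal RNAs were among them. Across these genes Pearson's r between the classes was 0.977 in library 1 and 0.932 in library 2, given as a description, since all genes share the libraries. The ratio was within 1.5-fold for 94.6% of genes in library 1 and for 76.6% in library 2.

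At least a 2-fold difference in the same direction in both libraries was found in 14 genes that were higher in low-gene barcodes (0.437% of those compared) and in 0 that were lower (0.0%). The 2 mitochondrial ribosomal RNAs were among the 14. With mitochondrial genes left out, 15 of 3262 genes were higher and 0 were lower. The minimum was set on a mean that includes the low-gene profiles, so a gene could enter through a high level there. With a minimum of 50 CPM in the remaining barcodes alone, an alternative added later, 10 of 2982 genes were higher (0.335%) and 0 were lower (0.0%), and JDP2, LRRC43, PDE4D and LOC106506953 were no longer among those counted. At 1.5-fold, 130 genes were higher (4.06%) and 6 were lower (0.187%). The balance of higher and lower genes depended on the scaling. With trimmed-mean (TMM) factors computed over all genes with UMIs, the median log2 ratio over genes moved from 0.08 to -0.22, and the counts at 1.5-fold became 20 higher and 63 lower. Median-of-ratios factors moved it to -0.12 and gave 35 higher and 27 lower. Factors computed over the compared genes only, an alternative added after those results were seen, gave 88 higher and 8 lower with TMM and 109 and 7 with median of ratios. The direction of small differences is therefore relative to the scaling.

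**Figure D2:**
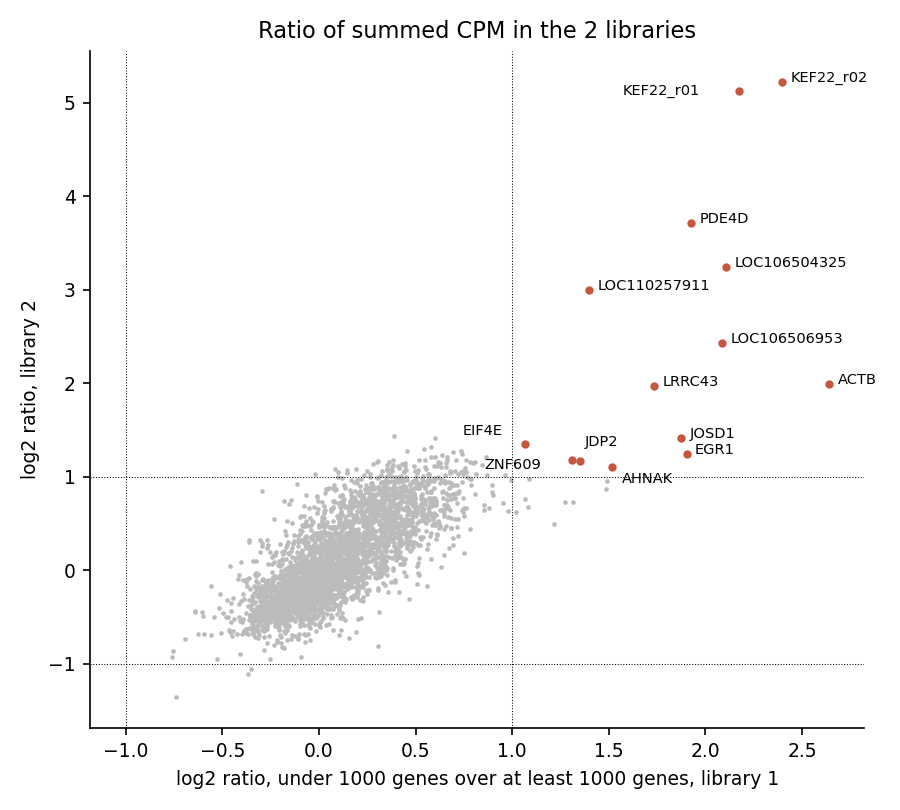
Log2 ratio of summed CPM in low-gene over remaining barcodes for the 3205 compared genes, library 1 on the horizontal and library 2 on the vertical axis, with dotted lines at 2-fold. The 14 labelled genes in red are at least 2-fold higher in both libraries, and no gene is at least 2-fold lower in both.

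ACTB, which encodes beta-actin of the cytoskeleton, stood out among the protein-coding genes. It lies on chromosome 3 at 4084275 to 4090383 (RefSeq, Sscrofa11.1). Its level was 3126 CPM in the low-gene barcodes and 502 CPM in the remaining ones of library 1, and 2786 and 702 CPM in library 2. The log2 ratio was 2.64 and 1.99, with a mean of 2.31 ± 0.46 (SD, n = 2). The UMIs were widely spread, since 1559 low-gene barcodes of library 1 and 783 of library 2 had at least 1 ACTB UMI, and no barcode held more than 15. The paralog ACTG1, which encodes gamma-actin, was at 5881 against 6072 CPM and at 5219 against 5681 CPM. The proteins encoded by these genes are nearly identical, and how reads were divided between the genes is not given in the sources used here.

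Several regulators and structural genes were also higher in low-gene barcodes. EGR1, an immediate early transcription factor, was at 290 against 77.6 CPM in library 1 and at 266 against 113 CPM in library 2. JOSD1, which encodes a deubiquitinase, was at 175 against 47.8 CPM and at 141 against 53.2 CPM. AHNAK, which encodes a very large scaffold protein, was at 621 against 217 CPM and at 785 against 364 CPM. All 3 were higher in both libraries. ZNF609, JDP2 and EIF4E, the last of which encodes the cap-binding translation factor, had log2 ratios between 1.07 and 1.35. AHNAK, EIF4E, JDP2 and ZNF609 were no longer 2-fold with TMM, median-of-ratios or per-barcode mean scaling, and EGR1 was not with TMM or per-barcode means, while all kept their direction.

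Just below 2-fold were HNRNPA1, a splicing regulator, at 598 against 300.04 CPM and 572 against 293 CPM, and CALR, which encodes the chaperone calreticulin, at 853 against 458 CPM and 871 against 463 CPM. Their log2 ratios were close in the libraries, 0.99 and 0.97 for HNRNPA1 and 0.90 and 0.91 for CALR. APH1A, RUNX1T1, MAP4K3 and UBAP2 had ratios between 0.87 and 1.49.

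PDE4D, which encodes a cyclic AMP phosphodiesterase, was high mainly in few barcodes. Its level was 227 against 59.8 CPM in library 1 and 354 against 26.9 CPM in library 2, with log2 ratios of 1.92 and 3.72. In library 1, 219 of its 406 UMIs came from 1 barcode with 2092 UMIs, of which 27.7% were mitochondrial. Without that barcode the log2 ratio in library 1 was 0.81, under 2-fold. Without the barcode with the most PDE4D UMIs in library 2 it was 3.53. The gene spans 1509 kb on chromosome 16, from 37897300 to 39406534.

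LRRC43, a leucine-rich repeat gene, was at 121 against 36.3 CPM and 69.3 against 17.8 CPM. The named genes were taken by rank, but 3 genes with placeholder names also passed 2-fold, and they are listed here because of their values. LOC106504325, a long noncoding RNA on chromosome 7 from 10796441 to 10905531, was at 664 against 154 CPM in library 1 and 1042 against 110 CPM in library 2. LOC106506953, a pseudogene on chromosome X, had log2 ratios of 2.08 and 2.43. LOC110257911, a long noncoding RNA on chromosome Y, had ratios of 1.40 and 2.99. In library 1, 79 of its 706 UMIs came from the barcode with the most PDE4D UMIs, and without that barcode its ratio was 1.23. With the mean of shares per barcode it was no longer counted. In low-gene barcodes with under 1% mitochondrial UMIs, LOC110257911, LRRC43, PDE4D and ZNF609 were no longer among those counted.

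The lowest genes were lower by less than 2-fold in at least one library. CD248, which encodes the stromal surface protein endosialin, was at 99.4 against 168 CPM and 103 against 188 CPM. FKBP11, which encodes a peptidyl-prolyl isomerase, was at 221 against 342 CPM and 177 against 284 CPM. CDKN3, a cell cycle phosphatase gene, had log2 ratios of -0.74 and -1.36, from 105 and 32 UMIs. CCDC34, ROMO1 and TMEM47 completed the 6 genes that were at least 1.5-fold lower in both libraries. The proteasome genes PSMD7 and PSMA4 and the imprinted genes PEG10 and GNAS were lower by smaller ratios, between -0.46 and -0.67.

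The gradient continued past 1000 genes. In library 1 ACTB was at 3181 CPM in barcodes with under 500 genes, 3037 CPM from 500 genes and 3190 CPM from 750 genes up to the limit. It was 2732 CPM from 1000 to under 1500 genes and 1357 CPM from 2000 to under 3000, and it reached 317 CPM at 5000 or more. In library 2 it was between 2307 and 3013 CPM within the low-gene class, 2537 CPM from 1000 to under 1500 genes and 413 CPM at 5000 or more. EGR1 went from 288 CPM in barcodes with 750 genes up to the limit to 45.9 CPM at 5000 or more in library 1, and from 299 to 64.8 CPM in library 2. RPL12, a protein of the large ribosomal subunit, ran the other way, from 2930 CPM in that bin to 4163 CPM from 1500 to under 2000 genes in library 1 and from 2391 to 3700 CPM in library 2.

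**Figure D3:**
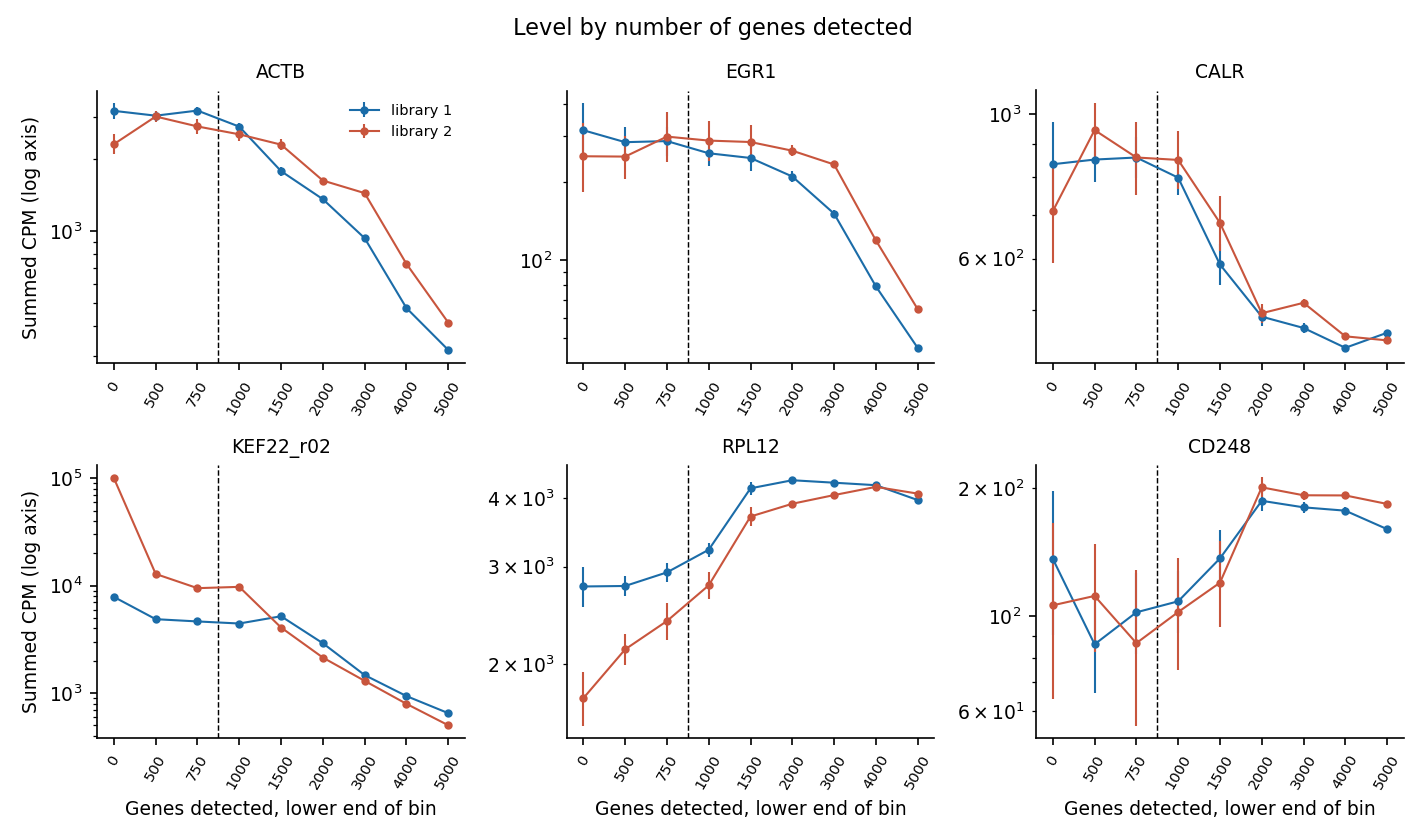
Summed CPM (log axis) of 6 genes by number of genes detected per barcode, with 95% exact Poisson intervals, library 1 in blue and library 2 in red; the dashed line marks 1000 genes. ACTB, EGR1 and KEF22_r02 are lower in barcodes with 5000 or more genes than at any point left of the line, and RPL12 is higher there, with no break at the line itself.

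Cytosolic ribosomal protein genes were slightly lower in low-gene barcodes. Of 77 compared, 64 were lower in both libraries and 0 were higher, with none at 1.5-fold. Over all 3205 genes compared, 31.6% were lower and 48.0% were higher in both libraries, which is the background for the counts of lists below. Their median log2 ratio was -0.18 in library 1 and -0.45 in library 2, beside 0.08 in each library over all genes compared. Their summed level was 229815 against 262228 CPM and 191371 against 264874 CPM. RPL12 was at 2844 against 4091 CPM and 2128 against 4097 CPM, and RPS2 was at 7934 against 10367 CPM and 6587 against 10346 CPM. The list stayed on the lower side under each scaling tried.

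Nuclear genes of the respiratory chain followed the same direction, with 31 of 39 lower in both libraries, 2 higher and medians of -0.15 and -0.32. COX6A1, a subunit of cytochrome c oxidase, was at 312 against 401 CPM and 284 against 355 CPM. Among S100, annexin and galectin genes, 9 of 15 were lower and 1 was higher in both. Iron and redox genes summed to 19074 against 21243 CPM and 16439 against 21053 CPM, with 7 of 12 lower and 4 higher, and glycolysis genes to 14666 against 16311 CPM and 13328 against 15771 CPM, with 6 of 13 lower and 3 higher. The glycolysis medians were 0.05 and -0.04, and with mitochondrial genes left out 7 were higher and 5 lower. In low-gene barcodes with under 1% mitochondrial UMIs, 7 glycolysis genes were higher and 4 lower. There the S100, annexin and galectin list had 6 higher and 8 lower, and the respiratory chain list 5 higher and 28 lower. S100A4, a small calcium-binding protein, was at 5150 against 6843 CPM and 4603 against 6697 CPM, and LGALS1, which encodes galectin 1, was at 8039 against 10220 CPM and 6877 against 9879 CPM.

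Genes of splicing and nuclear RNA-binding proteins were slightly higher, with 24 of 30 higher in both libraries, 2 lower and medians of 0.17 and 0.28. DDX17, an RNA helicase, was at 213 against 114 CPM and 298 against 167 CPM. This direction did not hold under every scaling: with TMM factors over all genes the medians were -0.07 and -0.09, and 7 members were higher and 13 lower in both libraries. HNRNPA1 and DDX17 were the members past 1.5-fold.

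The next lists are given by their sums and counts. Core cell cycle genes summed to 1296 against 1325 CPM in library 1 and 1322 against 1367 CPM in library 2. The level in the remaining barcodes varied with the number of genes, from 678 and 671 CPM at 2000 to under 3000 genes to 1801 and 1793 CPM at 5000 or more. Of 9 cycle genes compared, 0 were higher and 4 lower in both libraries, and with the mean of shares per barcode 5 were higher and 1 lower. Among them TOP2A, a topoisomerase of dividing cells, was at 82.7 against 86.0 CPM and 112 against 113 CPM. Of 21 collagen and matrix genes, 10 were higher and 4 lower in both, with medians of 0.09 and 0.11, a share of higher genes near the background. COL5A2 was at 431 against 339 CPM and 1186 against 691 CPM, while SPARC was at 189 against 244 CPM and 183 against 239 CPM. Of 16 immediate early genes, 7 were higher and 4 lower, also near the background, and EGR1 alone passed 2-fold. JUN was at 585 against 834 CPM and 414 against 496 CPM.

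Stromal markers remained abundant. Stromal markers summed to 6858 against 6494 CPM in library 1 and to 8174 against 8266 CPM in library 2. Of 11 compared, 8 were higher and 2 lower in both libraries, and with TMM factors over all genes 2 were higher and 8 lower. CD44, the hyaluronan receptor, was at 333 against 201 CPM and 307 against 172 CPM. The 2 lower ones included COL1A2, at 1894 against 2075 CPM and 2570 against 3034 CPM, and DCN, at 667 against 736 CPM and 642 against 716 CPM. Marker lists for other cell types gave low sums in both classes. Endothelial markers summed to 72.6 against 66.2 CPM and 135 against 91.2 CPM, and macrophage markers to 78.2 against 59.9 CPM and 24.6 against 24.0 CPM. Neutrophil and platelet markers summed to 12.8 against 14.3 CPM and 27.9 against 13.9 CPM. Lymphocyte markers summed to 3.91 and 1.12 CPM in the low-gene barcodes. Epithelial markers had 0 UMIs in them, which allows sums of up to 1.68 and 3.35 CPM (3 counts of each total).

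The members were of different kinds when divided by mitochondrial share, a division added after the data were seen. Levels in this division are given as CPM over the UMIs outside the mitochondrial genes. Low-gene barcodes with under 1% mitochondrial UMIs numbered 1600 (94.6%) in library 1 and 796 (81.9%) in library 2. In them ACTB was at 3217 and 3269 CPM, CALR at 883 and 1007 CPM, and EGR1 at 298 and 302 CPM. PDE4D was at 62.0 and 29.5 CPM, against 59.9 and 27.0 CPM in the remaining barcodes. With the minimum mean set at 200 CPM, 659 genes were compared, and 4 of them passed 2-fold upward in both libraries (0.607%) and 0 downward (0.0%). With the minimum on the remaining barcodes alone, 3 of 623 were higher (0.482%) and 0 lower (0.0%). The 4 of the first count were ACTB, AHNAK, HNRNPA1 and LOC106504325, of which the last was not in the second, and CALR, DDX17 and EIF5A were just under the limit in library 1.

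Low-gene barcodes with at least 1% mitochondrial UMIs carried another set of RNAs. At the same minimum 762 genes were compared, and 251 passed 2-fold upward in both libraries (32.9%) and 50 downward (6.56%). This balance rested on the minimum, since genes high in these few barcodes entered through them. With the minimum on the remaining barcodes alone, 46 of 623 genes were higher (7.38%) and 75 were lower (12.04%). PDE4D reached 3547 and 2626 CPM, of which the single barcode above held 219 of 301 UMIs in library 1. LRRC43 was at 742 and 320 CPM, against 36.3 and 17.9 CPM in the remaining barcodes. LOC106504325 was at 4183 and 6597 CPM, against 154 and 110 CPM. Next by rank, leaving out placeholder names, came SNED1 at 412 and 1006 CPM against 50.4 and 92.5 CPM. GSE1 was at 919 and 2359 CPM against 116 and 274 CPM. CEMIP, a hyaluronan-degrading protein gene, was at 436 and 1433 CPM against 70.5 and 169 CPM, and ZNF385D at 648 and 721 CPM against 113 and 122 CPM. The genes named in this paragraph averaged under 200 CPM in the remaining barcodes, so each entered through its level in these low-gene barcodes.

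ACTB, CALR, EGR1 and AHNAK were lower here than in the other kind, while LOC106504325 was higher. CALR was at 389 and 258 CPM, against 459 and 463 CPM in the remaining barcodes. EGR1 was at 177 and 116 CPM, from 15 and 13 UMIs, against 77.7 and 113 CPM. AHNAK was at 436 and 516 CPM against 218 and 365 CPM. ACTB was at 1779 and 499 CPM, where the remaining barcodes had 502 and 703 CPM, above the remaining barcodes in library 1 and below them in library 2. In library 1, 131 of the 151 ACTB UMIs came from the 50 barcodes with 1 to 5% mitochondrial UMIs, which were at 2575 CPM. Barcodes with 5 to 15% were at 576 CPM and those over 15% at 612 CPM, and in library 2 these bins were at 312 and 378 CPM. S100A4 was at 2804 and 2003 CPM against 6853 and 6705 CPM. Cytosolic ribosomal protein genes summed to 150077 and 87821 CPM against 262604 and 265172 CPM. By mitochondrial share the sum was 197114 CPM at 1 to 5%, 78188 CPM at 5 to 15% and 82692 CPM over 15% in library 1, and 109010, 46278 and 132055 CPM in library 2. Endothelial markers summed to 106 CPM from 9 UMIs and 383 CPM from 43 UMIs, against 66.3 and 91.3 CPM, and mural markers to 70.7 CPM from 6 UMIs and 134 CPM from 15 UMIs, against 27.8 and 37.9 CPM. Neutrophil and platelet markers, from 6 and 11 UMIs, summed to 70.7 and 97.9 CPM against 14.4 and 13.9 CPM. Fat cell markers, from 6 and 8 UMIs, summed to 70.7 and 71.2 CPM against 26.0 and 24.1 CPM. Macrophage and lymphocyte markers were higher in library 1 and had 0 UMIs in library 2, and muscle markers had 0 in both. Stromal markers summed to 7199 and 5689 CPM against 6503 and 8275 CPM. The part of other cell types in these profiles was not tested. Remaining barcodes with at least 1% mitochondrial UMIs, 221 and 116 in number, had a similar pattern, with PDE4D at 659 and 312 CPM, LOC106504325 at 2055 and 2260 CPM and ribosomal protein genes at 72001 and 64944 CPM.

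**Figure D4:**
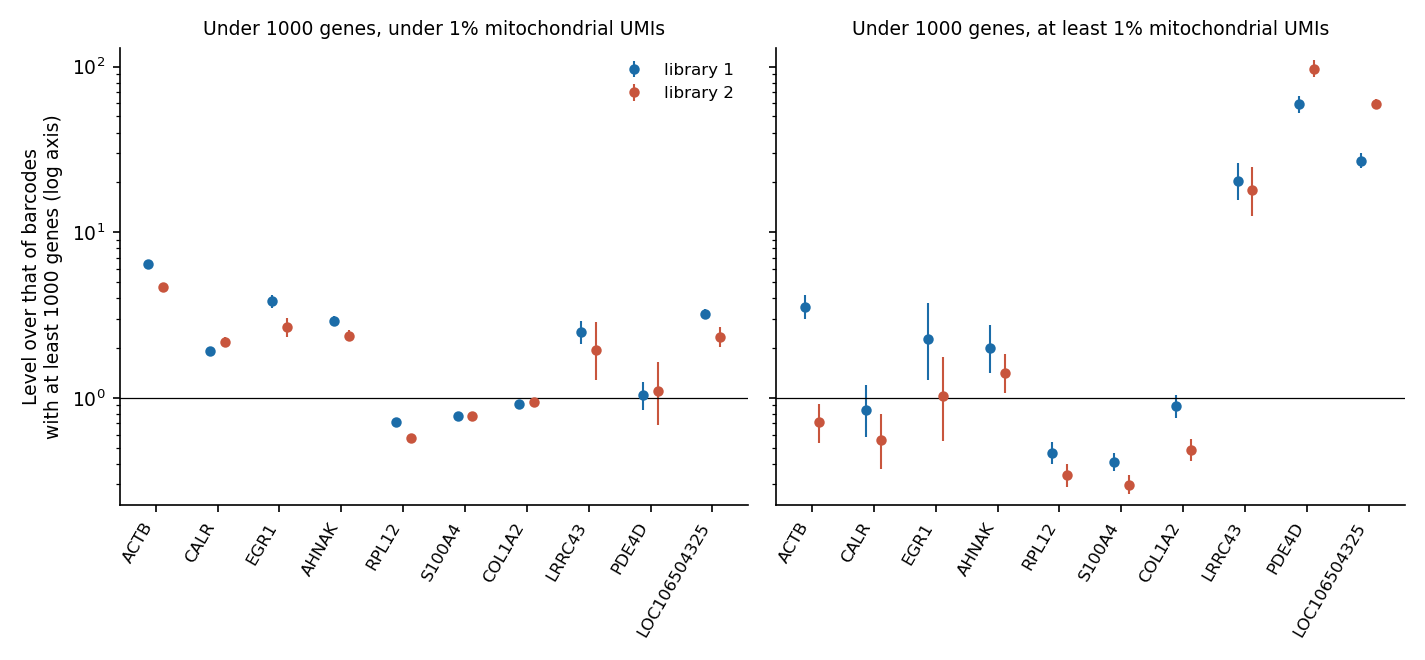
Level of 10 genes in low-gene barcodes divided by that in the remaining barcodes of the same library (log axis, CPM over UMIs outside mitochondrial genes), with 95% exact Poisson intervals of the low-gene level; left, under 1% mitochondrial UMIs, right, at least 1%. ACTB, CALR, EGR1 and AHNAK lie above 1 on the left with PDE4D near 1, and PDE4D, LRRC43 and LOC106504325 lie highest on the right.

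The median difference over genes was higher for genes with large spans in the RefSeq annotation than for short ones, most of all in barcodes with at least 1% mitochondrial UMIs. Over all low-gene barcodes the median log2 ratio was -0.15 in library 1 and -0.34 in library 2 for genes under 2 kb, and 0.32 and 0.81 for genes of 200 kb and over. In barcodes with at least 1% mitochondrial UMIs these medians were -0.64 and -1.56 for the shortest genes and 1.53 and 2.24 for the longest. In barcodes with under 1% they ran from -0.13 and -0.20 to 0.22 and 0.39. Single genes departed from this pattern. At the minimum of 200 CPM the highest genes of the under 1% kind, leaving out placeholder names, were ACTB, AHNAK, HNRNPA1 and CALR. They span 6.11, 29.5, 6.39 and 3.81 kb. With the minimum on the remaining barcodes alone, the medians of the longest genes were 1.53 and 2.22 in the first kind and 0.21 and 0.38 in the second. Genes of 100 kb and over gave 23.7% and 42.9% of the UMIs outside mitochondrial genes in the first kind, 10.8% and 13.6% in the second and 9.16% and 10.6% in the remaining barcodes. Long noncoding RNAs gave 2.87% and 2.96%, 1.42% and 1.35%, and 1.24% and 1.16% in the same order. Reads in introns and exons were not separated in the files, and the part of unspliced RNA in this pattern was not tested.

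**Figure D5:**
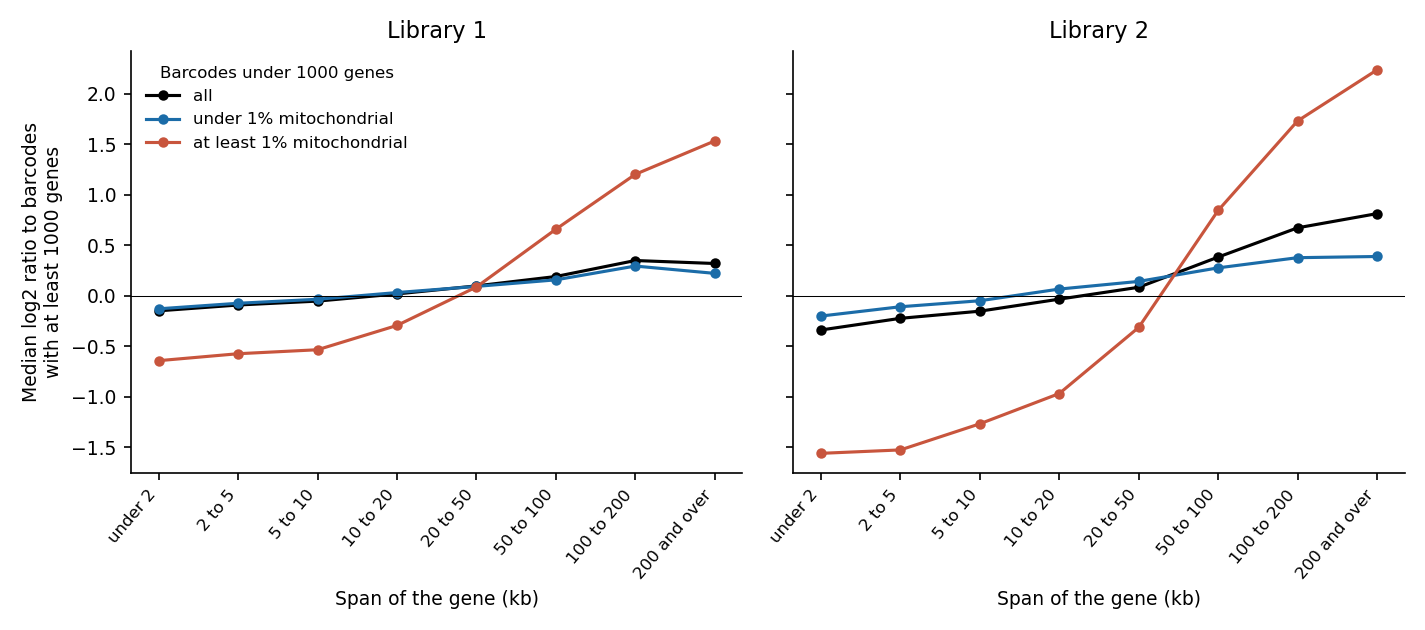
Median log2 ratio of low-gene to remaining barcodes (vertical axis) by span of the gene in kb (horizontal axis) in each library, for all low-gene barcodes (black) and for those with under 1% (blue) and at least 1% (red) mitochondrial UMIs. The red line runs from -0.64 to 1.53 in library 1 and from -1.56 to 2.24 in library 2, and the blue line stays between -0.20 and 0.39.

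Low-gene barcodes with under 1% mitochondrial UMIs differed less from one another, by the ratio below, than remaining barcodes with the same limit. Each barcode was thinned to 500 UMIs, and the variance of a gene or gene group over barcodes was divided by its mean. For random sampling from 1 common pool this ratio is about 1 where the gene or group holds a small share of the UMIs. It is lower for a group with a large share, such as ribosomal protein genes. These held a mean of 117 and 107 of the 500 UMIs in the low-gene barcodes, so their ratios are not to be read against 1. The median of this ratio over single genes was 1.01 in each library, against 1.05 and 1.04 in remaining barcodes with the same limit of under 1%. Groups of genes separated the classes more. Core cell cycle genes had a ratio of 1.09 and 1.10, against 1.88 and 2.05 in those remaining barcodes. For collagen and matrix genes it was 0.973 and 1.12 against 1.54 and 1.85, and for ribosomal protein genes 1.18 and 1.38 against 2.78 and 2.23. Without the limit on mitochondrial UMIs in either class, the ribosomal protein ratio was 3.05 against 4.44 in library 1 and 11.03 against 3.10 in library 2, so that the order turned in library 2. In low-gene barcodes with at least 1% mitochondrial UMIs the ribosomal protein ratio was 28.2 and 22.9.

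The low-gene barcodes kept the direction of most large differences between the libraries, but not always their size. The libraries were less alike in low-gene barcodes, with Pearson's r of 0.918 against 0.960 in the remaining ones. The share of compared genes within 1.5-fold was 78.7% against 90.8%. The low-gene profiles held only 1790746 and 895078 UMIs, against 209737159 and 245421850 in the remaining barcodes. Barcodes with at least 1% mitochondrial UMIs made up 5.44% of the low-gene class in library 1 and 18.1% in library 2. The part of depth and of this make-up in the lower likeness was not tested. Of 70 genes at least 2-fold higher in library 1 than in library 2 in the remaining barcodes, 69 had the same direction in the low-gene barcodes and 39 were 2-fold there too. All 9 genes that were 2-fold higher in library 2 were also 2-fold in the low-gene barcodes. CXCL2, a chemokine gene, was at 257 and 27.9 CPM in the low-gene barcodes of libraries 1 and 2, and at 286 and 31.7 CPM in the remaining barcodes. IER3, an early response gene, was at 475 and 87.1 CPM, and at 505 and 69.9 CPM in the remaining barcodes. COL12A1, a collagen gene, was at 267 and 249 CPM, and at 271 and 122 CPM in the remaining barcodes. A difference between single libraries has no replicate check.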

How the data were processed

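The deposited matrices give raw UMI counts, whole numbers for each gene in each barcode. The file headers name Cell Ranger 7.0.0, so the counts came from it per the file headers. The submitters' processing notes list Cell Ranger 7.00 and the build Sscrofa11.1. For the annotation and the calling of cells, the sources used here give no setting. Gene spans and types came from RefSeq (Sscrofa11.1), where 27649 of 28155 genes matched by symbol.

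Counts were summed per library and class with Python 3.11.15, numpy 2.4.6, scipy 1.17.1 and pandas 2.3.3. Log2 ratios used 0.5 added to each count, with exact 95% intervals. No doublet caller was run and no barcode was removed. No test was made, since the rule used the same counts. The summing and counting were tested on simulated data. The members, gene lists and division of members were chosen with earlier results of these data known. Named genes were the 15 highest and 15 lowest by the smaller of both libraries' ratios, leading and most abundant list genes, and mitochondrial genes. The planned TMM and median-of-ratios factors used all genes with UMIs; factors over compared genes only were added after those results were seen, and both are given.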

Additional observations from a re-analysis of the deposited data

How the results depend on the processing

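The 14 genes higher in low-gene barcodes, of 3205 compared, became 9 of 3205 with TMM factors, which also gave 1 lower gene (CCDC34). They became 8 of 3235 with the mean of shares per barcode. With a minimum of 20 CPM more genes were compared, and 38 of 6223 were higher. A limit of under 750 genes gave 1 lower gene (CDKN3) of 3182, and a 1.5-fold limit gave 130 higher and 6 lower of 3205. Taken from 1 library alone, the counts were 23 to 104 higher and 0 to 3 lower, the larger numbers in library 2. The median log2 ratio over genes turned negative with TMM (-0.22), median-of-ratios factors (-0.12) and a minimum of 100 CPM (-0.014). Factors over the compared genes only, added after the planned scaling results were seen, gave 13 and 14 higher genes and medians of 0.029 and 0.050. A minimum set on the remaining barcodes alone gave 10 higher and 0 lower of 2982 genes. In the barcodes with at least 1% mitochondrial UMIs it changed 251 higher and 50 lower of 762 to 46 and 75 of 623. Why the factors differ between gene sets was not tested. PDE4D was under 2-fold in at least 1 library without barcodes of over 15% mitochondrial UMIs. For the 35 genes of highest, lowest or mitochondrial rank, 290 of 418 values under alternatives stayed within the spread between libraries, 128 moved by more and 0 changed sign. These genes were picked from the same data for ratios of the same sign in both libraries. The count of sign changes therefore says nothing of other genes. No paired analysis was possible because there is 1 group and no test. Depth limits single genes in the smaller kind of low-gene barcode, which held 84870 and 112331 UMIs outside mitochondrial genes.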
